A study of Mus musculus with 6 samples.

Results

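Hmgcs1, Idi1, Fdps, Fdft1, Sqle, Lss, Cyp51 and Insig1 are 8 genes of cholesterol synthesis and its control, out of 16623 genes measured in single liver cells of wild-type and SIRT7-/- mice. They are known targets of the transcription factor SREBP2, and they were selected on their mean level per mouse in the same comparison of SIRT7-/- with wild-type liver cells that is described here. Their differences between the genotypes are therefore given as values, with no test. All 8 were found in the table of measured genes, and 7 of them encode enzymes of cholesterol synthesis, while Insig1 encodes a regulator. None of the 8 takes up cholesterol, and uptake genes are counted in a list of other pathway genes.

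Cells make cholesterol from acetyl-CoA through mevalonate, isoprenoids, squalene and lanosterol, or take it up as lipoproteins. When sterols are low in the endoplasmic reticulum (ER), the escort protein SCAP carries SREBP2 to the Golgi, where it is cut so that it can enter the nucleus and switch on the genes of synthesis and uptake together. When sterols are high, the Insig proteins hold SCAP and SREBP2 back in the ER. Hepatocytes are the main site of cholesterol synthesis, lipoprotein release and bile acid production in the body, but all nucleated cells can run the pathway.

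The samples were livers of 3 wild-type and 3 SIRT7-/- mice (WT and SIRT7 KO in the plots), 5 to 6 months old. SIRT7 is a histone deacetylase, and no cell type or promoter that would limit its deletion is named for these mice. The sex of the mice is not given in the sources used here. From each liver, equal numbers of hepatocytes and nonparenchymal cells were pooled for droplet sequencing, in which a unique molecular identifier (UMI) marks every captured RNA molecule.

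The table held 11610 cells, from 552 to 5609 per mouse, with 2511947 to 11069411 UMIs per mouse and 13 cell barcodes that occur in more than 1 library. SIRT7-/- mouse 1 alone gave 5609 of the cells. The 8 genes together had 16883 UMIs, from 1756 to 3830 per mouse. Levels are counts per 10000 UMIs of a cell (CP10K), averaged over all cells that a mouse has in a class, so that the mouse is the replicate. Sirt7 itself had a mean of 0.512 to 0.718 CP10K in the wild-type and 0.0814 to 0.139 CP10K in the SIRT7-/- mice.

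No cell types are named in the table, so the cells were clustered anew into 10 clusters, and 8 of them had at least 20 cells in 2 or more mice per genotype. In 7 of these, marker genes gave a name: hepatocyte-like (1189 cells), dendritic-like (1541), macrophage-like (3709), T and NK-like (1952), B-like (159), plasma cell-like (441) and endothelial-like (525). The 5 periportal markers summed to 77.9 to 95.2 CP10K in wild-type hepatocyte-like cells and the 5 pericentral markers to 15.7 to 37.7 CP10K, but none of either list was among the 10 leading genes of that cluster, so no zone is named. Cluster 2 (1757 cells) carried all 6 hepatocyte markers, at a sum of 229 to 474 CP10K in wild-type mice, but 3 hemoglobin genes stood among its 10 leading genes, so it is called by its number. Its hemoglobin came to 104 CP10K in wild-type mouse 1 and to at most 6.26 CP10K in the other mice. The dendritic-like cluster carried all 21 of its markers, and the basophil genes Prss34 and Mcpt8 and the monocyte gene F13a1 were among its 10 leading genes as well. The share of each marker's level that lay in this cluster averaged 0.647 for the basophil list and 0.4 for the dendritic lists, and the name rests on the 3 dendritic markers among the leading genes. Of the 8 genes described here, Idi1 alone was among the 1000 variable genes that the clustering used.

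The start regions of the genes are shown first, because SREBP2 acts there together with NF-Y and SP1. RefSeq start regions (GRCm38.p6) matched 5 of the 8 genes, namely Hmgcs1, Idi1, Lss, Cyp51 and Insig1, and Sqle, Fdps and Fdft1 are named only. In the 250 bases before the start, 3 motifs were searched on both strands: CACNCCAC, a core of the sterol regulatory element, CCAAT for NF-Y and GGGCGG for SP1. The first was present in Hmgcs1 and Insig1, and in 5.29% of all 32851 start regions of that length. All 5 regions held CCAAT, which 33.9% of all regions hold, and all 5 held GGGCGG, which 32.7% hold. A match is a description of the letters and not a shown binding site. Hmgcs1 is given as the gene with the most regular difference between the genotypes, Insig1 as the only other region with the sterol motif, and Lss as the enzyme with the least regular difference. Each is written 5′ to 3′ on the strand of the gene, with matches to the 3 motifs on either strand in capitals.
Hmgcs1, chr13:119690101-119690350, plus strand: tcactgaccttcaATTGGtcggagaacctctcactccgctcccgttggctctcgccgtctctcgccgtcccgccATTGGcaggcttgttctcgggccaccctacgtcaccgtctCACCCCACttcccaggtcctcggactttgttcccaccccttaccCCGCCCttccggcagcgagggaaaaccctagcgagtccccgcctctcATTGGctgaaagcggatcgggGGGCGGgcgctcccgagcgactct
Insig1, chr5:28071162-28071411, plus strand: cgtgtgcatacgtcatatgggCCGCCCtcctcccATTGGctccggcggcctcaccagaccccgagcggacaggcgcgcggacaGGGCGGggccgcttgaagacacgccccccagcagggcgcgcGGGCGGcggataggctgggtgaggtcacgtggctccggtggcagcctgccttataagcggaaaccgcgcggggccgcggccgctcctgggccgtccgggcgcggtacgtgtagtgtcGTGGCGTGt
Lss, chr10:76531355-76531604, plus strand: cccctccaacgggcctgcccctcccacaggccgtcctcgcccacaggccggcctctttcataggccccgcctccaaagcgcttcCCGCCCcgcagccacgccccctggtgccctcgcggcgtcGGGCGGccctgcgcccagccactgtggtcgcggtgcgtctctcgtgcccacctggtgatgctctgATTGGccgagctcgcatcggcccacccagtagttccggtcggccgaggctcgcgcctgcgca
The sterol motif CACCCCAC of Hmgcs1 spans 136 to 129 bases before the start, and that of Insig1, read here as GTGGCGTG, spans 9 to 2 bases before it, both counted from the RefSeq start. The GENCODE vM21 start lies further upstream for 4 of the 5 genes, so that the last 49 bases of the Insig1 region, its sterol motif among them, and the last 17 bases of the Lss region are past it. In the GENCODE vM21 annotation (GRCm38), Hmgcs1 lies on chromosome 13 from 119690379 to 119708260, Idi1 on chromosome 13 from 8885501 to 8892451 and Fdps on chromosome 3 from 89093588 to 89101959. Fdft1 lies on chromosome 14 from 63145150 to 63179578, Sqle on chromosome 15 from 59315077 to 59331192 and Lss on chromosome 10 from 76531588 to 76557138. Cyp51 lies on chromosome 5 from 4081145 to 4104746, and Insig1 on the same chromosome from 28071363 to 28078662. Apart from the pairs on chromosomes 13 and 5, the genes do not share a chromosome.

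Summed over the 8 genes, the level was lower in SIRT7-/- mice in all 8 classes compared, and in 7 of them each SIRT7-/- mouse lay below each wild-type mouse. In dendritic-like cells, the sum was 9.30, 8.38 and 8.14 CP10K in wild-type mice 1, 2 and 3 and 4.49, 4.74 and 5.08 CP10K in SIRT7-/- mice 1, 2 and 3. These are means of 8.61 ± 0.612 and 4.77 ± 0.296 CP10K (SD, n = 3), a ratio of 0.554. Hepatocyte-like cells had sums of 18.9, 30.4 and 26.5 CP10K in wild-type against 8.27, 12.4 and 14.3 CP10K in SIRT7-/- mice. Cluster 2 went from 22.8 ± 7.41 to 10.5 ± 4.06 CP10K and macrophage-like cells from 5.34 ± 1.52 to 2.35 ± 0.130 CP10K (SD, n = 3). T and NK-like cells went from 6.95 ± 1.30 to 3.42 ± 1.08 CP10K (SD, n = 3). With fewer mice, the sum in endothelial-like cells was 8.40 ± 1.38 CP10K in 3 wild-type mice and 2.27 and 3.67 CP10K in SIRT7-/- mice 1 and 2. In B-like cells it was 6.97 and 7.77 CP10K in wild-type mice 1 and 3 and 3.13 and 3.48 CP10K in SIRT7-/- mice 1 and 2. Plasma cell-like cells were the exception, with 3.30 and 2.68 CP10K in wild-type mice 2 and 3 and 1.79 and 2.92 CP10K in SIRT7-/- mice 1 and 2, so that the genotypes overlapped.

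**Figure D1:**
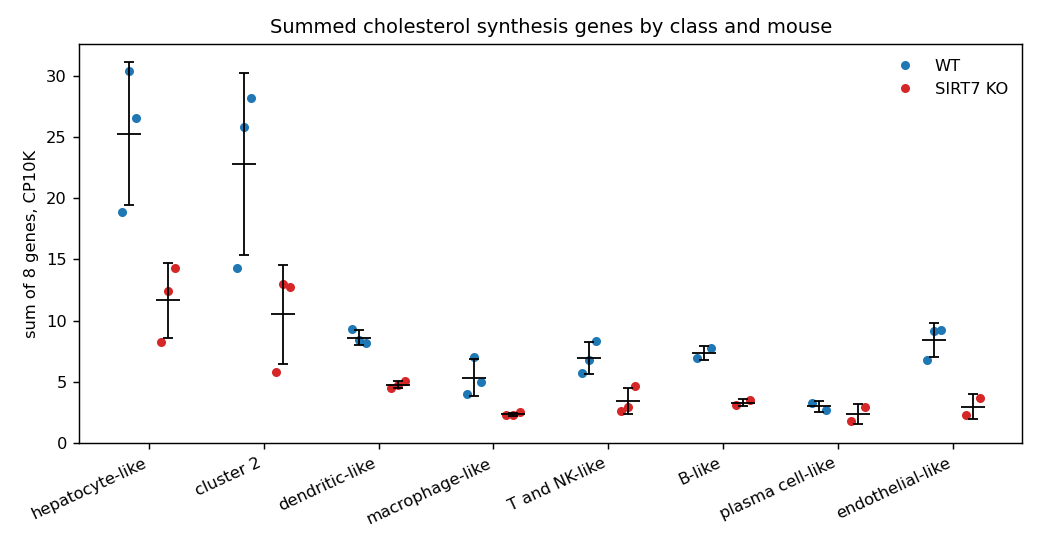
Sum of the 8 genes in CP10K (y axis, linear, from 0) for each class (x axis), with 1 point per mouse, WT in blue and SIRT7 KO in red, and black bars for the mean and SD. In dendritic-like cells the WT mice sit between 8.14 and 9.30 CP10K and the SIRT7 KO mice between 4.49 and 5.08 CP10K, and the genotypes overlap only in plasma cell-like cells.

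Some summed cell type markers were without overlap between the genotypes as well. Of 21 marker lists, 10 had summed levels without overlap between the genotypes in plasma cell-like cells, and 6 each in B-like and macrophage-like cells. The number was 5 each in the dendritic-like, T and NK-like and endothelial-like classes, 4 among hepatocyte-like cells and 0 in cluster 2. Fewer mice leave a list without overlap by chance more often. Plasma cell-like and B-like cells had only 2 mice per genotype, and endothelial-like cells 2 SIRT7-/- mice, so these counts do not rank the classes. The share of all genes without overlap in either direction was not counted, so nothing is read from the counts themselves. Some lists also lay near 0, such as the migratory dendritic list in plasma cell-like cells, which reached at most 0.423 CP10K. In T and NK-like cells, the 5 NK cell markers summed to 16.6 to 23.3 CP10K in wild-type and to 24.4 to 49.5 CP10K in SIRT7-/- mice, and the 7 cycling-cell markers to 1.16 to 3.77 and 4.35 to 18.6 CP10K. In hepatocyte-like cells, the 5 periportal markers lay between 77.9 and 95.2 CP10K in wild-type and between 53.8 and 67.0 CP10K in SIRT7-/- mice. The 5 pericentral markers were lower as well, at 15.7 to 37.7 against 11.9 to 15.6 CP10K. The 6 hepatocyte markers overlapped, at 173 to 351 and 81.4 to 221 CP10K. In plasma cell-like cells, the 6 neutrophil markers summed to 0.0391 to 0.165 CP10K in wild-type and to 13.7 to 21.5 CP10K in SIRT7-/- mice. In macrophage-like cells, the cycling-cell markers were lower in SIRT7-/- mice, at 0.912 to 3.91 against 4.07 to 6.75 CP10K. The part of these lists in the levels of the 8 genes was not tested.

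Taken gene by gene, 54 of the 64 pairs of a gene and a class had a lower mean in SIRT7-/- mice. In 8 of those 64 pairs, 1 genotype had 3 or fewer UMIs, and without them 49 of 56 pairs had the lower mean. Each SIRT7-/- mouse lay below each wild-type mouse in 24 pairs, and above in 1 pair. Hmgcs1 accounted for 7 of these 24 pairs, Insig1 for 5, Idi1 and Sqle for 4 each, Cyp51 and Fdps for 2 each, and Fdft1 and Lss for 0. By class, the number of the 8 genes that lay below in this way was 3 in dendritic-like cells, beside 7.03% of all genes tested there. It was 2 in hepatocyte-like cells (3.99% of all genes), 3 in cluster 2 (9%) and 4 in macrophage-like cells (9.85%). It was 2 in T and NK-like cells (6.23%), 3 in B-like (13%), 2 in plasma cell-like (10.8%) and 5 in endothelial-like cells (12.7%). Because the genes were selected on this comparison, nothing is read from these shares. The share of all genes that lay above was not counted, so nothing is read from the 1 pair above either.

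In dendritic-like cells, all 8 genes had a lower mean in SIRT7-/- mice. Hmgcs1, the synthase that makes HMG-CoA at the head of the pathway, was at 1.74, 2.17 and 3.02 CP10K in wild-type mice 1, 2 and 3 and at 0.980, 0.925 and 0.664 CP10K in SIRT7-/- mice 1, 2 and 3. The genotypes did not overlap, and the log2 fold change was -1.36 (standard error 0.27), the lowest of the 8 in these cells. Idi1, the isomerase that makes the isoprenoid building block ready for chain growth, was at 0.827, 1.86 and 0.953 CP10K in wild-type and at 0.401, 0.730 and 0.561 CP10K in SIRT7-/- mice. Here too the genotypes were apart, though the wild-type mice spread widely, and the log2 fold change was -0.99 (standard error 0.33). Sqle, the oxygen-requiring epoxidase that acts on squalene, was at 0.655, 0.396 and 0.814 CP10K in wild-type and at 0.394, 0.328 and 0.353 CP10K in SIRT7-/- mice. For Sqle the lowest wild-type mouse and the highest SIRT7-/- mouse nearly met, and the log2 fold change was -0.67 (standard error 0.33).

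The other 5 genes overlapped between the genotypes in dendritic-like cells. Fdps, which joins isoprenoid units into farnesyl diphosphate, had means of 1.91 ± 0.623 and 1.37 ± 0.385 CP10K (SD, n = 3). Fdft1, the squalene synthase that commits farnesyl diphosphate to sterols, had 0.529 ± 0.260 and 0.242 ± 0.0939 CP10K. Lss, which folds the squalene epoxide into lanosterol, rested on 16 UMIs in wild-type and 9 in SIRT7-/- mice. Cyp51, the demethylase that acts on lanosterol, had 0.551 ± 0.197 and 0.347 ± 0.181 CP10K. Insig1, whose protein restrains the pathway, showed the smallest difference of the 8, with a log2 fold change of -0.39 (standard error 0.27) and levels of 1.75, 1.29 and 0.944 CP10K against 1.18, 0.927 and 0.842 CP10K. The median log2 fold change of the 8 genes was -0.79, beside a median of -0.05 over the 9753 genes tested in these cells. Median depth per cell was 4244, 4058.5 and 2363 UMIs in wild-type and 1389, 1958 and 4683 UMIs in SIRT7-/- dendritic-like cells. The 4 monocyte markers, all detected, summed to 8.78 to 10.4 CP10K in the former and 10.6 to 17.3 CP10K in the latter, and the 8 macrophage markers, all detected, to 4.01 to 4.73 and 4.81 to 6.67 CP10K, both without overlap. Lower in SIRT7-/- mice without overlap were the 5 periportal hepatocyte markers, at 8.06 to 16.3 against 3.09 to 7.40 CP10K. So were the 5 pericentral ones, at 5.05 to 5.30 against 2.24 to 4.64 CP10K. The 7 cycling-cell markers summed to 0.844 to 7.31 and 5.93 to 10.2 CP10K. The part of depth and of these marker lists, cycling among them, in the result was not tested.

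**Figure D2:**
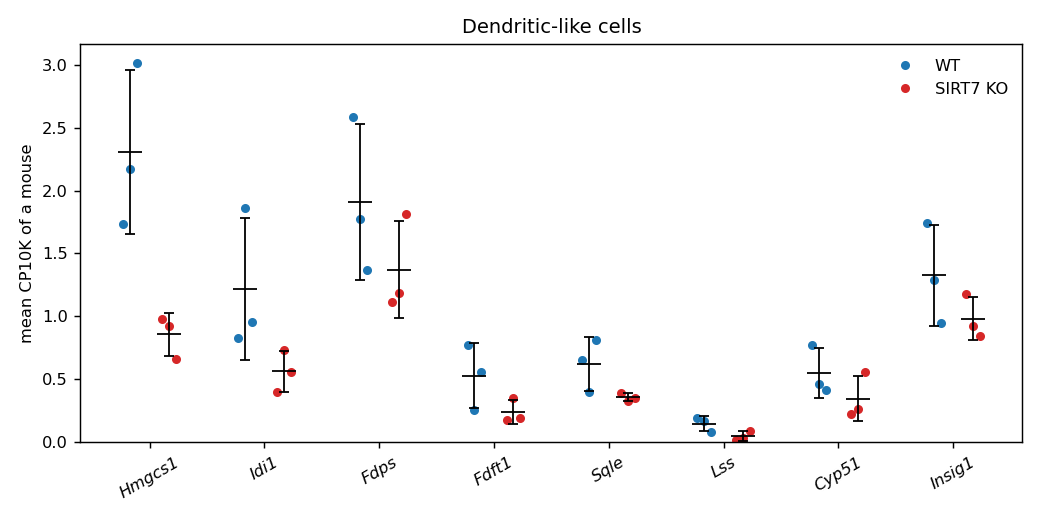
Level of each of the 8 genes (x axis) in dendritic-like cells, as the mean CP10K of a mouse (y axis, linear, from 0), with 1 point per mouse, WT in blue and SIRT7 KO in red, and black bars for the mean and SD (n = 3). Hmgcs1, Idi1 and Sqle have all SIRT7 KO mice below all WT mice, and the other 5 genes overlap.

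Among hepatocyte-like cells, the mean of 7 of the 8 genes was lower in SIRT7-/- mice. Insig1, the gene with the most UMIs there, was at 11.7, 13.2 and 7.96 CP10K in wild-type and at 5.07, 5.11 and 6.86 CP10K in SIRT7-/- mice 1, 2 and 3. Hmgcs1 was at 1.69, 5.70 and 6.08 CP10K in wild-type and at 0.889, 1.57 and 1.37 CP10K in SIRT7-/- mice. Both genes were without overlap, with log2 fold changes of -0.92 (standard error 0.36) and -1.61 (standard error 0.44), and for Hmgcs1 wild-type mouse 1 stood close to the SIRT7-/- mice. Idi1 had the lowest log2 fold change, -1.86 (standard error 0.48), with 1.16, 2.97 and 2.99 CP10K against 0.414, 1.25 and 0.337 CP10K. Its overlap came from wild-type mouse 1, at 1.16 CP10K, and SIRT7-/- mouse 2, at 1.25 CP10K. Fdft1 had a log2 fold change of -1.44, Sqle of -1.53, Cyp51 of -1.05 and Fdps of -0.72, all with overlap. Lss went the other way, with 0.188, 0.754 and 0.411 CP10K in wild-type against 0.376, 1.02 and 0.626 CP10K in SIRT7-/- mice, and a log2 fold change of 0.60 (standard error 0.51). The median over the 8 genes was -1.25, beside 0.18 over the 10256 genes tested.

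In cluster 2, Cyp51, Sqle and Hmgcs1 were the genes that separated the mice of the genotypes. Cyp51 had the lowest log2 fold change there, -2.36 (standard error 0.56), with 0.444, 1.38 and 1.28 CP10K in wild-type against 0.113, 0.0486 and 0.382 CP10K in SIRT7-/- mice 1, 2 and 3. Sqle was at 0.546, 1.25 and 0.505 CP10K in wild-type and at 0.00753, 0.185 and 0.461 CP10K in SIRT7-/- mice. Hmgcs1 was at 3.02, 6.92 and 12.5 CP10K in wild-type and at 1.07, 2.97 and 1.5004 CP10K in SIRT7-/- mice. Wild-type mouse 1 was the lowest wild-type mouse for Hmgcs1 and Cyp51, whereas Insig1, without overlap in hepatocyte-like cells, overlapped here through wild-type mouse 3 at 2.93 CP10K. Fdps hardly differed, with 3.91 ± 0.853 and 3.75 ± 1.78 CP10K (SD, n = 3). Lss, higher in SIRT7-/- hepatocyte-like cells, was lower here on 29 and 5 UMIs, with a log2 fold change of -1.77 (standard error 0.67). The median over the 8 genes was -1.82, beside -0.08 over the 8568 genes tested. With both clusters of hepatocyte genes taken as one, the median was -1.35 and Cyp51 alone kept the genotypes apart.

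**Figure D3:**
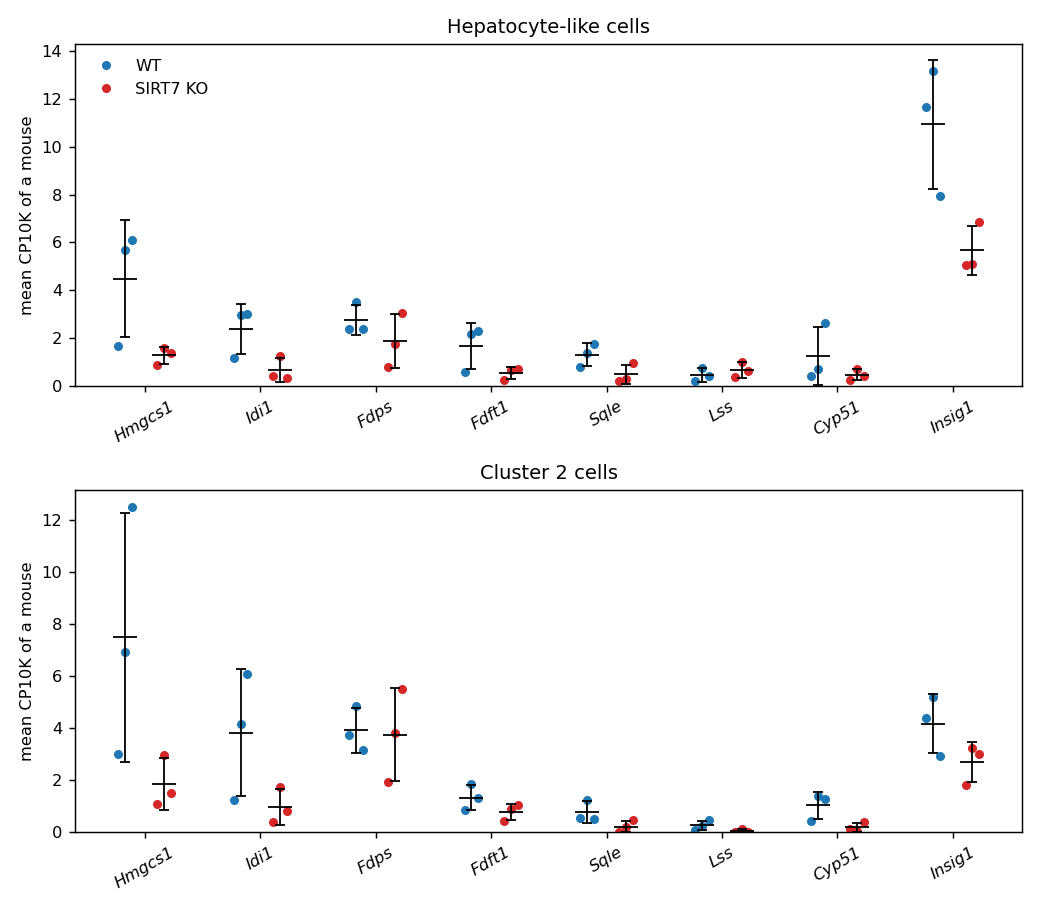
Levels of the 8 genes (x axis) in hepatocyte-like cells (top) and cluster 2 (bottom), as the mean CP10K of a mouse (y axes, linear, from 0), with 1 point per mouse, WT in blue and SIRT7 KO in red, and black bars for the mean and SD (n = 3). Insig1 in the top panel runs from 7.96 to 13.2 CP10K in WT and from 5.07 to 6.86 CP10K in SIRT7 KO mice, and Lss is the only gene there with a higher SIRT7 KO mean.

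Among the other immune and the endothelial-like cells, Hmgcs1 separated the genotypes in all but macrophage-like cells. In T and NK-like cells it was at 0.959, 2.32 and 3.68 CP10K in wild-type and at 0.542, 0.559 and 0.245 CP10K in SIRT7-/- mice, a log2 fold change of -2.13 (standard error 0.46). Insig1 was the other gene without overlap in these cells, and Sqle, Lss and Fdft1 had log2 fold changes between -0.03 and 0.09. In macrophage-like cells Hmgcs1 overlapped by a hair, since wild-type mouse 1, at 0.675 CP10K, lay within the SIRT7-/- mice at 0.668, 0.723 and 0.611 CP10K. The genes apart there were Idi1, Fdps, Sqle and Insig1. Idi1 had 0.428, 0.949 and 0.790 CP10K against 0.199, 0.238 and 0.167 CP10K and a log2 fold change of -1.57 (standard error 0.35). Insig1 in macrophage-like cells was at 1.44, 1.54 and 0.882 CP10K against 0.788, 0.647 and 0.756 CP10K.

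In endothelial-like cells, where SIRT7-/- mouse 3 had 8 cells and was left out, Hmgcs1, Idi1, Fdps, Sqle and Insig1 were without overlap. Fdps was at 1.41, 1.44 and 0.743 CP10K in wild-type and at 0.242 and 0.501 CP10K in the remaining SIRT7-/- mice, on 61 and 11 UMIs. Sqle, Lss and Cyp51 had 1, 1 and 2 UMIs in SIRT7-/- endothelial-like cells, so no fold is given for them. In B-like cells, 4 of the 8 genes had 3 or fewer UMIs in a genotype, and Hmgcs1 rested on 17 and 6 UMIs. The genes without overlap in B-like cells were Hmgcs1, Insig1 and Cyp51, the last on 2 UMIs in each genotype. Plasma cell-like cells held the single pair with higher levels in SIRT7-/- mice and no overlap. Insig1 was there at 0.403 and 0.451 CP10K in wild-type mice 2 and 3 and at 0.710 and 0.903 CP10K in SIRT7-/- mice 1 and 2, while wild-type mouse 1, left out with 12 cells, was at 0.728 CP10K. Hmgcs1 in plasma cell-like cells kept the direction seen elsewhere, at 0.784 and 0.800 against 0.181 and 0.314 CP10K. The median log2 fold change of the 8 genes was -0.64 in T and NK-like, -1.03 in macrophage-like, -1.17 in endothelial-like, -0.84 in B-like and -0.40 in plasma cell-like cells. The medians over all genes tested in these classes lay between -0.06 and 0.22.

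**Figure D4:**
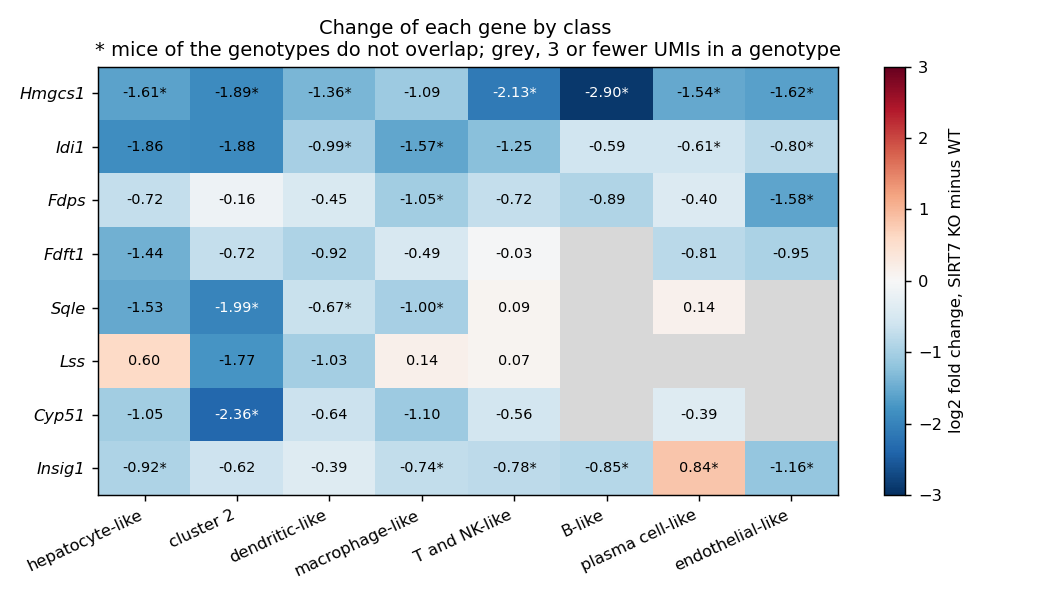
Log2 fold change, SIRT7 KO minus WT, of each of the 8 genes (rows) in each class (columns), coloured from blue (lower in SIRT7 KO) through white to red (higher), with the value in each cell, a star where the mice of the genotypes do not overlap, and grey where a genotype had 3 or fewer UMIs. Hmgcs1 is lower in each of the 8 classes, Lss has values on both sides of 0, and Insig1 in plasma cell-like cells is the only starred value above 0.

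Transcripts of hepatocyte marker genes were detected in each other class. As in dendritic-like cells, the 5 periportal markers were lower in SIRT7-/- mice without overlap in macrophage-like cells (7.07 to 19.6 against 1.36 to 5.22 CP10K). The same held in T and NK-like cells (12.8 to 26.2 against 4.33 to 11.1 CP10K). It also held in endothelial-like (10.95 to 23.9 against 4.25 to 10.5 CP10K) and plasma cell-like cells (3.79 to 6.38 against 1.28 to 3.55 CP10K). In B-like cells they overlapped. In dendritic-like cells all 6 hepatocyte markers (Alb, Apoa1, Apoc3, Ttr, Fgb and Trf) were detected, and they summed to 42.0 to 74.7 CP10K in wild-type and 12.1 to 52.3 CP10K in SIRT7-/- mice. That is 20.1%, 10.7% and 20.6% of the level in the hepatocyte clusters of the same mouse in wild-type and 25.1%, 9.50% and 22.8% in SIRT7-/- mice. If the 8 genes came along in that proportion, 3.24, 2.85 and 5.66 CP10K of the sum in wild-type and 1.73, 1.22 and 3.19 CP10K in SIRT7-/- dendritic-like cells would be hepatocyte RNA. Over the 6 classes other than the hepatocyte clusters, 41 of 48 log2 fold changes of a gene in a class were below 0 as measured, and 21 of 48 after this share was taken off gene by gene. Where the share of a gene exceeded its level in a mouse, the remainder was set to 0. The sums left can therefore exceed the measured sum less its share. After subtraction, the sums in dendritic-like cells were 6.05, 5.53 and 2.64 CP10K in wild-type against 2.78, 3.52 and 2.47 CP10K in SIRT7-/- mice, and the genotypes overlapped through wild-type mouse 3. For Hmgcs1 in dendritic-like cells the log2 fold change after subtraction was -1.08, for Sqle -0.63, for Fdft1 -0.81 and for Fdps -0.51. For Idi1, Cyp51 and Insig1 it turned to 0.41, 0.26 and 0.12.

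In the other classes less was left after subtraction. The sum was 1.63 ± 1.41 CP10K in wild-type against 0.983 ± 0.424 CP10K in SIRT7-/- macrophage-like cells, and 1.52 ± 0.742 and 1.24 ± 0.606 CP10K in T and NK-like cells (SD, n = 3). In both of these classes the genotypes then overlapped. Endothelial-like cells stayed apart, with 2.16, 3.17 and 2.33 CP10K in wild-type against 0.610 and 1.89 CP10K in SIRT7-/- mice. This separation rests on remainders set to 0. In wild-type mouse 3 the share was 8.11 of 9.24 CP10K, and in SIRT7-/- mouse 2 it was 1.83 of 3.67 CP10K. Without setting any gene to 0, the genotypes would overlap through these mice. In B-like cells the means were 1.05 and 0.968 CP10K, and in plasma cell-like cells the order turned, with 0.979 CP10K in wild-type against 1.65 CP10K in SIRT7-/- mice. The median log2 fold change of the 8 genes changed sign in T and NK-like cells, to 0.57, in B-like cells, to 0.21, and in plasma cell-like cells, to 0.45. The subtraction assumes that each RNA leaves hepatocytes in the proportion measured inside them, which was not tested. In some mice the share exceeded the whole measured sum. In B-like cells of wild-type mouse 3 the share was 10.7 CP10K against a measured sum of 7.77 CP10K. In endothelial-like cells of SIRT7-/- mouse 1 it was 2.73 against 2.27 CP10K. There the share overstated the hepatocyte RNA.

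**Figure D5:**
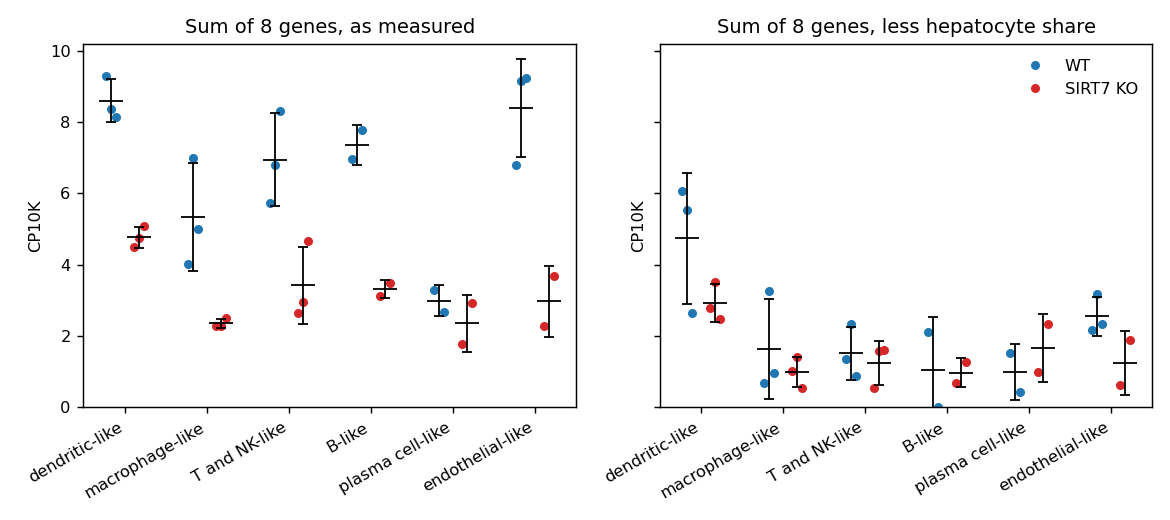
Sum of the 8 genes in CP10K (y axes, linear, from 0) in the 6 classes other than the hepatocyte clusters (x axes), as measured (left) and after taking off, gene by gene and to no less than 0, the share that the 6 hepatocyte markers imply (right), with 1 point per mouse, WT in blue and SIRT7 KO in red, and black bars for the mean and SD. On the right, endothelial-like cells are the only class in which the genotypes do not overlap, which rests on genes set to 0, and WT dendritic-like cells reach from 2.64 to 6.05 CP10K.

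The dendritic-like class was clustered again, since its leading genes came from several cell types. Its largest part, 814 of 1541 cells and led by genes such as Clec4a1, Clec4a3, Lyz2 and Chil3, was placed by its markers with monocytes, all 4 of whose markers were detected, ahead of conventional dendritic cells of type 2, so that most cells of the class were monocyte-like by these lists. It was the only one with 20 or more cells in all 6 mice. The 8 genes summed there to 8.65 ± 0.489 CP10K in wild-type against 4.12 ± 0.757 CP10K in SIRT7-/- mice (SD, n = 3), also without overlap. The hepatocyte share was not taken off in this part. Its 6 hepatocyte markers summed to 76.4, 50.2 and 51.85 CP10K in wild-type and 55.9, 13.8 and 61.0 CP10K in SIRT7-/- mice 1, 2 and 3. The part of hepatocyte RNA in this separation was not tested. Hmgcs1 in this part was at 1.598, 2.96 and 3.71 CP10K in wild-type and at 0.805, 0.644 and 0.489 CP10K in SIRT7-/- mice, a log2 fold change of -1.96 (standard error 0.34). Fdps, with overlap in the whole class, had 2.09, 1.61 and 1.54 CP10K against 0.650, 0.943 and 1.53 CP10K here. These did not overlap, but wild-type mouse 3 and SIRT7-/- mouse 3 nearly met. Idi1, apart in the whole class, overlapped. The share of this part in the class was 58.8% ± 11.4 in wild-type and 57.5% ± 8.19 in SIRT7-/- mice (SD, n = 3; exact permutation test, two-sided, p = 1). The shares of the other 4 parts gave p between 0.5 and 0.9 in the same exact permutation test, where the smallest p that 3 mice against 3 allow is 0.1. The part led by plasmacytoid genes such as Siglech, Cox6a2 and Ccr9 (190 cells) had enough cells only in 2 SIRT7-/- mice, at a mean sum of 8.40 CP10K, while the wild-type mice had 6, 5 and 16 cells there.

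By level, the hepatocyte clusters came first and next in wild-type mice for each of the 8 genes. Hmgcs1, Idi1 and Fdps were highest in cluster 2, and Fdft1, Sqle, Lss, Cyp51 and Insig1 in hepatocyte-like cells. Insig1 showed the widest step, from 10.9 ± 2.69 CP10K in hepatocyte-like cells to 4.17 ± 1.14 CP10K in cluster 2 and 1.89 ± 0.518 CP10K in endothelial-like cells (SD, n = 3). For Hmgcs1 the order was cluster 2 at 7.48 ± 4.77, hepatocyte-like cells at 4.49 ± 2.44 and endothelial-like cells at 3.25 ± 1.85 CP10K (SD, n = 3), neighbours that lie within their spread of each other. The same holds for Sqle, at 1.31 ± 0.495 CP10K in hepatocyte-like cells, 0.766 ± 0.418 CP10K in cluster 2 and 0.622 ± 0.211 CP10K in dendritic-like cells (SD, n = 3). Dendritic-like cells came next after the hepatocyte clusters for 6 of the 8 genes, all but Hmgcs1 and Insig1. The lowest wild-type mean was in plasma cell-like cells for 5 genes, in macrophage-like cells for Fdps and Fdft1, and in B-like cells, with 0 UMIs, for Lss.

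Of the rest of the pathway, 32 genes in 3 lists were tested in the same fit over all genes, with limma and Benjamini-Hochberg adjustment. The other synthesis enzymes leaned lower without passing the test one by one. All 12 had a log2 fold change below 0 in dendritic-like cells, with a median of -0.19, and so did all 12 in cluster 2, with a median of -1.12, and 11 of 12 in hepatocyte-like cells, with a median of -0.82. Below 0 were 11 of 12 in macrophage-like, 10 of 12 each in T and NK-like and endothelial-like, 8 of 12 in B-like and 6 of 10 in plasma cell-like cells. In dendritic-like cells 0 of the 12 had an unadjusted p under 0.05, and the median over all genes was -0.05. The share of all genes below 0 was not counted. Msmo1, which works on the sterol after Cyp51, had the lowest value in cluster 2, -3.02 (standard error 0.61, limma adjusted p = 0.0642), and Tm7sf2, a sterol reductase, the lowest in hepatocyte-like cells, -2.14, and in dendritic-like cells, -0.79. The highest were Sc5d at 0.32 in hepatocyte-like and Pmvk at -0.03 in dendritic-like cells. In hepatocyte-like cells 0 of the 31 other pathway genes tested passed with limma, beside 0.244% of all genes, 6 of them had an unadjusted p under 0.05 (9.97% of all genes did), 5 of these lower, and voom also called 0. Without SIRT7-/- mouse 1 or 3, 1 passed in these cells. In dendritic-like cells 0 of the 28 other pathway genes tested passed with limma, beside 0.041% of all genes, 1 of them had an unadjusted p under 0.05 (6.09% of all genes did), and limma's voom on summed UMIs also called 0. In cluster 2, 0 of 30 passed (0.455% of all genes), 8 had an unadjusted p under 0.05, all lower (10.6% of all genes did, 573 lower and 337 higher), and voom called 10, among 512 genes in all. Hence the count in cluster 2 rests on the model chosen.

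Sensing and uptake genes lay on different sides of 0 in the clusters with hepatocyte markers. Of 11 such genes in hepatocyte-like cells, 10 had a log2 fold change above 0 there, with a median of 0.51, from -0.08 for Srebf2 to 1.01 for Npc1, and 0 passed with limma, while 1 had an unadjusted p under 0.05. In cluster 2, 8 of 10 tested were below 0, with a median of -0.34, and Npc1, a cholesterol carrier of the lysosome, was the lowest at -1.55. Again 0 passed and 1 had an unadjusted p under 0.05. Whether the genotype effect on a gene was unequal in these clusters was tested over 8238 genes, and 0 passed after adjustment. Npc1, with opposite signs in the clusters, had a gap of 2.56 on the log2 scale (standard error 0.61) and did not pass. The difference between the lists was not tested. Srebf2, which encodes SREBP2 itself, was at 0.604 ± 0.413 CP10K in wild-type against 0.516 ± 0.193 CP10K in SIRT7-/- hepatocyte-like cells, and at 0.847 ± 0.156 and 1.04 ± 0.345 CP10K in dendritic-like cells (SD, n = 3). Lipa, the lysosomal lipase that frees cholesterol from taken-up lipoproteins, rose in macrophage-like cells from 2.87, 1.57 and 2.67 CP10K to 6.38, 5.50 and 6.31 CP10K. The difference was 1.38 on the log2 scale (limma adjusted p = 0.0317, standard error 0.23), where 0.201% of all genes passed, and it was the only one of 28 other pathway genes to pass there, while 6 had an unadjusted p under 0.05 (10.6% of all genes did). Without any 1 of the wild-type mice, without SIRT7-/- mouse 3, or with no filter on low values, 0 passed in macrophage-like cells.

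Of the 9 storage and efflux genes, 6 to 8 were tested in a class, and 0 passed with limma in any class. Over the 8 classes there were 8 unadjusted p-values under 0.05, 4 higher and 4 lower in SIRT7-/- mice. By class, 3.65% to 10.6% of all genes had such a p. In dendritic-like cells 6 of them were tested, with a median log2 fold change of 0.19, and Mylip, a ubiquitin ligase induced by liver X receptors, had the highest value, 0.86, and Abca1, a cholesterol exporter, the lowest, -0.13. In hepatocyte-like cells the median of 8 tested was 0.14, from -0.43 for Abcg5 to 1.19 for Mylip. None of the other pathway genes passed in T and NK-like (0.12% of all genes passed), endothelial-like (0.282%), B-like (0.0215%) or plasma cell-like cells (0.0781%) with limma, where 7, 4, 2 and 0 of them had an unadjusted p under 0.05, beside 7.27%, 7.29%, 3.65% and 6.53% of all genes. The synthesis enzymes with the lowest values were Msmo1 in T and NK-like cells, at -1.41, and Nsdhl in endothelial-like cells, at -2.16. The hepatocyte share was not taken off for the other pathway genes, so their values are as measured in each class. The part of hepatocyte RNA in them was not tested.

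Within a class, with both genotypes pooled, the 8 genes varied together from mouse to mouse. Over 43 points of a mouse and class, with the class mean taken off, all 28 pairs among them had a positive correlation, from 0.10 to 0.72 with a median of 0.44. These points share libraries, depth and hepatocyte RNA, so this is a description. The genotype mean was not taken off. The difference on which the 8 genes were selected is therefore part of these correlations and of the ranking that follows. The 10 genes most like the mean of the 8, out of 3376 compared by Pearson's correlation over the same points, were Cyp2c69 (0.84), Msmo1 (0.81), Pcyt2 (0.78), Cyp3a44, Cyp2c37, Cyp2c40, Atp5g3, Cyp2c50, Ethe1 and Hspa9 (0.66). Msmo1 is the only one of the 10 on the cholesterol lists, and 5 of them are cytochrome P450 genes of the Cyp2c and Cyp3a families, which hepatocytes use to clear drugs and steroids.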

How the data were processed

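Single-cell RNA sequencing of 3′ ends was run on the livers of 6 mice, 3 per genotype. Per their methods, the authors used Cell Ranger 6.0.0 with mm10, dropped cells with few genes or much mitochondrial RNA, brought all cells to a total of 10000 and log-transformed the values with an offset of 1. The deposited values are on a natural log scale, since their exponential minus 1 summed to 10000 for each of 11610 cells. Divided by the step of its cell, each of the 12961041 values above 0 was within 0.02 of a whole number of UMIs. The barcode ending gave the mouse.

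With scanpy 1.11.5 and leidenalg 0.10.2 (Python 3.11.15), cells were clustered on 1000 variable genes and 50 principal components, with 3 neighbors per mouse and a resolution of 0.35, after the study's methods. Clusters were named from marker lists with "-like" added, and may differ from the study's. Doublets were not removed, because the caller marked 46 of the cells (0.396%).

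Mean CP10K per mouse and class (20 or more cells) plus 0.05 was taken as log2, and genes averaging 0.05 CP10K or more were fitted with limma 3.58.1 (R 4.3.3; lmFit, eBayes with trend and robust), two-sided, SIRT7-/- minus wild-type, p-values being adjusted by Benjamini-Hochberg across every gene fitted in a class and a threshold of 0.05. The study's own test treats cells as replicates and was not used here. Fold changes are on the log2(CP10K + 0.05) scale, which understates those of low genes. The fit was tested on simulated data. Levels of different genes are 3′ UMI counts, not divided by length. Of the genes first listed, 2 are not reported here and enter no count of the lists. The members, lists and tests were chosen with earlier results of these data known. Named by rule were the 8 genes, the highest and lowest of each list, genes past the threshold, Srebf2, and the 10 genes most like the 8.

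The hepatocyte share of a class is the ratio of its 6 summed hepatocyte markers to those in both hepatocyte clusters of the same mouse. Alternatives were another pseudocount, no filter, summed UMIs, voom, a replicate block, a finer clustering, hepatocyte clusters combined, subtraction of the hepatocyte share, and each mouse left out.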

Additional observations from a re-analysis of the deposited data

Results flagged for a closer look

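Insig1 had a log2 fold change of 0.84 in plasma cell-like cells, where both SIRT7-/- mice compared lay above both wild-type mice. Wild-type mouse 1, left out with 12 cells, lay between these SIRT7-/- mice, so the separation depends on the limit of 20 cells. In B-like, T and NK-like, endothelial-like, hepatocyte-like and macrophage-like cells, each SIRT7-/- mouse lay below each wild-type mouse for the same gene. The difference between the classes was not tested. In plasma cell-like cells the median log2 fold change over all genes tested was 0.22. There limma gave an unadjusted p under 0.05 to 356 genes higher and 146 genes lower in SIRT7-/- mice. The share of all genes that lay above without overlap was not counted. Groups of 3 mice are too small for a test of single outlying mice.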

How the results depend on the processing

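The median log2 fold change of the 8 genes kept its direction with summed UMIs, a finer clustering, both hepatocyte clusters as one class, a pseudocount of 0.5 CP10K and a replicate block, in each class where these were run. With the pseudocount of 0.5 CP10K it shrank to -0.29 in B-like cells, -0.68 in cluster 2, -0.36 in dendritic-like, -0.51 in endothelial-like and -0.49 in macrophage-like cells. With hepatocyte RNA subtracted it was -0.57 in dendritic-like, -0.37 in endothelial-like and -0.23 in macrophage-like cells, and it reversed to 0.21 in B-like, 0.45 in plasma cell-like and 0.57 in T and NK-like cells. Leaving out 1 mouse gave -0.91 to -0.61 in dendritic-like cells, -1.05 to -0.58 in their largest part, -1.595 to -0.96 in endothelial-like, -1.09 to -0.63 in macrophage-like (-0.63 without wild-type mouse 2), -0.80 to -0.33 in T and NK-like (-0.33 without SIRT7-/- mouse 1), -1.72 to -0.94 in hepatocyte-like cells, -2.18 to -1.25 in cluster 2 and -1.32 to -0.026 in B-like cells, the last without SIRT7-/- mouse 1. In plasma cell-like cells the range was -0.66 to 0.015, with a reversal to 0.015 without SIRT7-/- mouse 1 and to 0.0073 without wild-type mouse 2. An alternative chosen after seeing the data, with only genes of over 3 UMIs in each genotype, moved no median beyond the spread between mice.

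Counts of genes past the threshold were unstable, and the causes were not tested. Main counts were 2 in B-like, 12 in T and NK-like, 39 in cluster 2, 4 in dendritic-like, 30 in endothelial-like, 20 in macrophage-like, 25 in hepatocyte-like and 6 in plasma cell-like cells. In B-like cells they became 0 with no filter, with summed UMIs and with voom, and 1 with the larger pseudocount. In cluster 2 they became 69 with no filter, 138 with summed UMIs and 512 with voom. In endothelial-like cells they became 71, 7 and 3 in that order. In hepatocyte-like cells they became 14, 15 and 108, and 45 with the larger pseudocount. In macrophage-like cells no filter gave 1. In plasma cell-like cells no filter gave 76, voom 24 and the larger pseudocount 16, which gave 22 in T and NK-like cells. Leaving out 1 mouse gave 0 to 0 in B-like, 7 to 142 in T and NK-like, 20 to 162 in cluster 2, 0 to 139 in dendritic-like, 12 to 272 in endothelial-like, 7 to 178 in hepatocyte-like, 1 to 96 in macrophage-like and 3 to 913 in plasma cell-like cells. Where an arm was left with 1 mouse, it was assumed to vary like the other arm.

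Other cholesterol genes past the threshold in cluster 2, 0 in the main result, became 1 with no filter, 1 with the larger pseudocount, 5 with summed UMIs and 10 with voom. Without a filter the 1 gene in macrophage-like cells became 0. Leaving out 1 mouse gave 0 to 5 in cluster 2, 0 to 2 in endothelial-like, 0 to 1 in hepatocyte-like, 0 to 1 in macrophage-like and 0 to 3 in plasma cell-like cells.

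The replicate numbers do not pair the mice: deviations of same-numbered mice correlated between -0.14 and 0.09 over 19 pairs of a class and number. With the replicate block, genes past the threshold were 2 in cluster 2, 68 in dendritic-like, 92 in endothelial-like, 139 in macrophage-like and 58 in hepatocyte-like cells. The block could not be fitted for B-like and plasma cell-like cells, whose genotypes share 1 number. Leaving out called doublets was not run, since the caller did not work. Cells were fewest in B-like cells, with 23 to 70 cells per mouse compared, against 20 to 135 in plasma cell-like and 57 to 195 in endothelial-like cells.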

Other observations

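Neutrophil-like cells and the smaller parts of the dendritic-like class had too few mice with 20 cells to be compared, and their sums over the 8 genes are given as values. The hepatocyte share was not taken off these sums. Neutrophil-like cells had 6.29 CP10K in wild-type mouse 1 (23 cells) and 2.34 and 3.67 CP10K in SIRT7-/- mice 1 and 2 (213 and 21 cells). The dendritic part led by Hbb-bt, Snx22, Xcr1 and Tlr3 had 6.56 CP10K in wild-type mouse 3 (68 cells) and 4.92 and 3.72 CP10K in SIRT7-/- mice 1 and 2 (142 and 40 cells). The hemoglobin genes Hbb-bs and Hba-a1 were among its 10 leading genes too. Its hemoglobin came to 27.4 and 0.0997 CP10K in SIRT7-/- mice 1 and 2 and to 0.116 CP10K in wild-type mouse 3. The part led by Elane, Mpo and cycling genes had 5.39 CP10K in wild-type mouse 3 (42 cells) and 2.74 and 3.57 CP10K in SIRT7-/- mice 1 and 2 (106 and 46 cells). The plasmacytoid part, which had the highest sums of the dendritic parts in SIRT7-/- mice 1 and 2, at 8.85 and 7.94 CP10K, held 14.0, 18.4 and 16.5 CP10K in the wild-type mice, on only 6, 5 and 16 cells.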
